A study of Drosophila melanogaster with 3 samples.

Results

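The genes described here lie on the X chromosome of Drosophila melanogaster, and their RNA was measured in brains dissected from larvae of instar 3. They are the named rows of the deposited RPKM table placed on the X (RPKM is read number divided by transcript length and by mapped reads), without small nucleolar, small nuclear, transfer and micro RNA names, with 1 row per name. Of 2090 such names, 1583 reached 1 RPKM in 1 or more libraries and are the members; 9475 genes passed the same rules over all chromosomes, 7840 of them on the autosomes. The members were thus chosen by their RPKM, and 507 names stayed below 1 RPKM in every library. Among those just inside the limit were CG12535 (1.001 RPKM at most) and CCKLR-17D1 (1.01 RPKM at most), and just outside it lay the joined row Syt12,dmrt11E (0.998 RPKM at most). At least 1 RPKM was reached in all 3 libraries by 1421 members, in 2 libraries by 72 and in 1 library by 90, which were 51 members that passed in the double mutant library alone, 18 in the single mutant library alone and 21 in the control library alone.

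The double mutant library came from animals homozygous for the dBRWD3 allele PX2 and for the yem insertion GS21861 (dBRWD3PX2/PX2, yemGS21861/GS21861). The single mutant library came from animals homozygous for PX2 (dBRWD3PX2/PX2), and the control library from heterozygotes (dBRWD3PX2/+), so that every library carries at least 1 copy of PX2. Cultures were kept at 25 °C, and neither the sex of the larvae nor the number of brains is given in the sources used here. Each genotype has 1 library, so no spread between replicates exists, no test was run, and each statement compares libraries rather than genotypes. The 3 comparisons share libraries with each other, so their values are given side by side and are not independent.

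Male flies carry a single X, and dosage compensation raises its transcription to match the pair of X chromosomes in females. The MSL complex, which holds the noncoding RNAs roX1 and roX2 and the acetyltransferase MOF, binds the transcribed X genes of males and acetylates histone H4. BRWD3 is a bromodomain and WD-repeat protein, and yem encodes yemanuclein, a partner of the H3.3 chaperone HIRA. The genes Hira and His3.3B are themselves on the X.

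Both roX RNAs were present in every library. In the order double mutant, single mutant and control, which is kept throughout for values of the 3 libraries, roX1 (X, 3752928 to 3756720 in the build dm3) had 66.7, 63.7 and 46.2 RPKM, and roX2 (X, 11473088 to 11474467) had 312, 264 and 367 RPKM. The 2 RNAs differed in order, since roX1 was lowest in control and roX2 was highest there. The other 8 male-specific markers, all genes known from the Y chromosome, were at or near 0 (0.00296 RPKM at most). The brain was represented by elav, an RNA-binding protein gene of neurons (X, 403450 to 473289), with 40.7, 32.1 and 21.2 RPKM, and all 8 brain markers were detected with summed levels of 183, 136 and 124 RPKM. Markers of other tissues were present and differed between libraries. The 7 fat body markers summed to 1223, 224 and 598 RPKM, the 6 gut markers to 36.7, 2.44 and 92.7 RPKM, the 9 salivary gland markers to 103, 636 and 160 RPKM (Sgs1 and Sgs4 near 0), the 5 hemocyte markers to 490, 157 and 170 RPKM and the 4 eye disc markers to 106, 89.1 and 64.2 RPKM. In bulk tissue, fewer cells of a type and less RNA per cell cannot be told apart. The table holds no read numbers. Low genes step by a product of RPKM and kb that, taken as 1 read, puts about 28.6, 22.2 and 28.6 reads behind 1 RPKM of a 1 kb transcript in the 3 libraries. Of the control values above 0, 51.1% carry more than 6 significant digits. In the double mutant column the share is 0.243%, and in the single mutant column it is 0.240%. Whether the control column is a mean of several runs is not stated in the sources used here; if it is, its step is not 1 read and its read number is not known.

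X genes stood higher relative to autosomal genes in the double mutant library than in the control library. Ratios are log2 of the RPKM quotient after adding 1 RPKM to each value, which makes ratios of low genes smaller. The median ratio of double mutant over control was 0.15 over the 1583 X members and 0.06 over the 7840 autosomal genes, a difference of 0.09 on the log2 scale or 6.61%. The medians of the 4 large autosomal arms lay between 0.04 (2R) and 0.08 (2L), so the X lay above each of them. Scaling the libraries to equal autosomal medians moved the median of all genes by -0.12 in this comparison, so each ratio is read against the autosomal median and not against 0. Of the X members 66.7% had a ratio above 0, against 57.6% of the autosomal genes. Both tails were displaced as well: the 5th percentile was -0.43 on the X and -0.52 on the autosomes, and the 95th percentile was 0.94 on the X and 0.79 on the autosomes.

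The displacement was smaller in the other comparisons. For single mutant over control the median was 0.07 on the X and 0.04 on the autosomes, where the large arms ranged from 0.02 to 0.05. For double over single mutant the median was 0.08 on the X and 0.04 on the autosomes, with the large arms between 0.04 (3R, 0.0356) and 0.04 (3L, 0.0441). The differences between X and autosomes were 0.03 (2.42%) for single mutant over control and 0.05 (3.17%) for double over single mutant. In both comparisons the X median thus lay above each large arm, by less than in double mutant over control. The small chromosome 4, with 79 genes, lay apart from both, with a median of 0.29 in single mutant over control and -0.21 in double over single mutant.

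**Figure D1:**
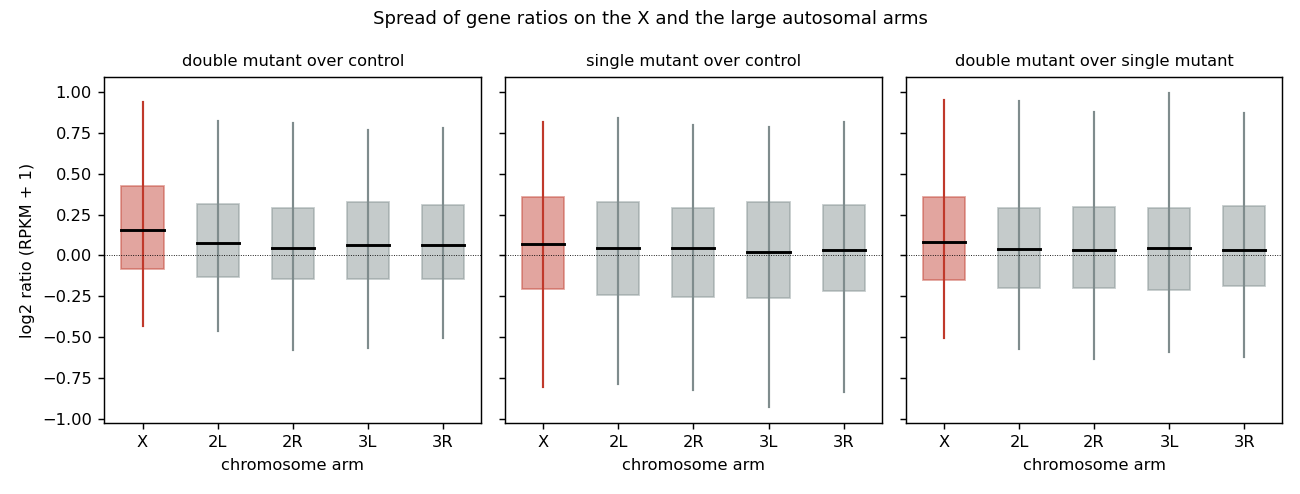
Log2 ratios, with 1 RPKM added, of genes on the X (red) and on the 4 large autosomal arms (grey) in each comparison; boxes span the 25th to the 75th percentile, black bars mark the median and lines run from the 5th to the 95th percentile of genes. In double mutant over control the X median is 0.15, and the arm medians lie between 0.04 and 0.08.

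Levels in each library showed the same order. The median over X members was 14.5 RPKM in the double mutant, 12.8 RPKM in the single mutant and 12.1 RPKM in the control library. The autosomal medians were 13.4, 12.5 and 12.2 RPKM, and the quotient of X to autosomal median was 1.09, 1.02 and 0.989. Without the limit of 1 RPKM the quotients were 1.40, 1.30 and 1.27, in the same order. In each library the X median was thus close to the autosomal one when genes below 1 RPKM were left out.

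The double mutant library held the highest of the 3 values for more genes on the X than on the autosomes. Among the 1582 members with 3 values, the highest was found in the double mutant library for 45.2%, in the single mutant library for 31.8% and in control for 23.0%. On the autosomes these shares were 36.1%, 35.5% and 28.4%, and the share for the double mutant library was 36.2% on 2L, 36.0% on 2R, 36.4% on 3L and 36.5% on 3R. The lowest value was in the double mutant library for 18.4% of the X members and 24.7% of the autosomal genes, and in control for 47.3% of the X members and 39.4% of the autosomal genes. For the single mutant library the share with the lowest value was 34.3% on the X and 35.8% on the autosomes.

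**Figure D2:**
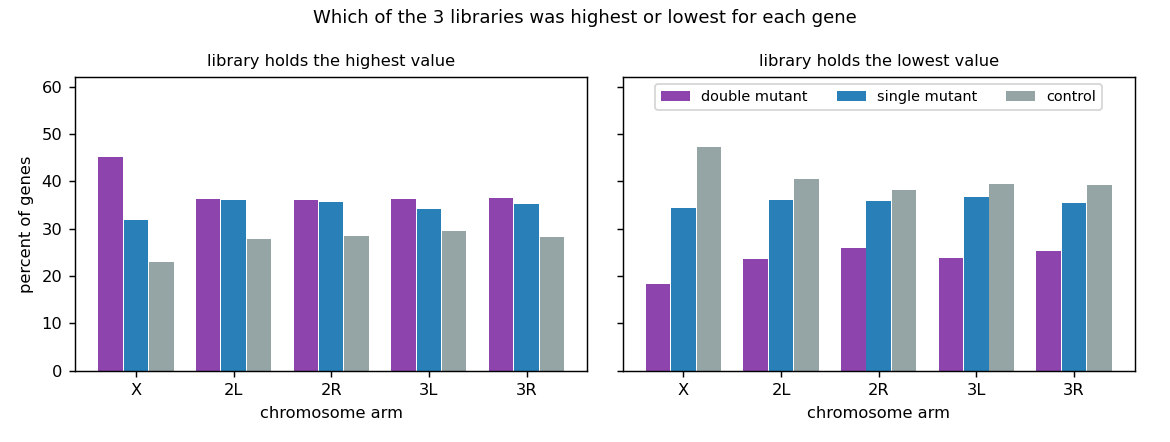
Percent of genes on the X and on each large autosomal arm for which the double mutant, single mutant or control library held the highest (left) or the lowest (right) of the 3 RPKM values. The double mutant library is highest for 45.2% of X genes and for 36.0% to 36.5% of genes on the autosomal arms.

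Among genes at 1 RPKM or more, the difference between X and autosomes varied with the level of expression. X and autosomal genes together were divided into 5 classes of equal size by mean RPKM over the libraries. The X median of double mutant over control exceeded the autosomal median by 0.14 in the lowest class (means of 0.364 to 3.03 RPKM), by 0.12 in the second class, by 0.16 in the third class (8.79 to 18.5 RPKM) and by 0.06 in the fourth class. In the highest class (means above 41.8 RPKM) the medians were 0.01 for 297 X genes and 0.02 for 1588 autosomal genes, so no X excess was seen there. With a limit of 5 RPKM the difference was 0.13 in the lowest class and -0.00897 in the highest class. With no limit it was 0.00593 in the lowest class and 0.02 in the highest class. Class bounds were set anew there, and the lowest class took in genes below 1 RPKM. The added 1 RPKM holds ratios of such genes near 0, so that setting cannot tell whether the contrast extends to them. Single mutant over control, with the limit of 1 RPKM, had a difference of 0.08 in the lowest class and -0.04 in the highest class. In double over single mutant the difference was 0.05 in the lowest class and 0.05 in the highest class, and the medians of both groups declined with expression, to -0.05 on the X and -0.09 on the autosomes in the highest class.

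**Figure D3:**
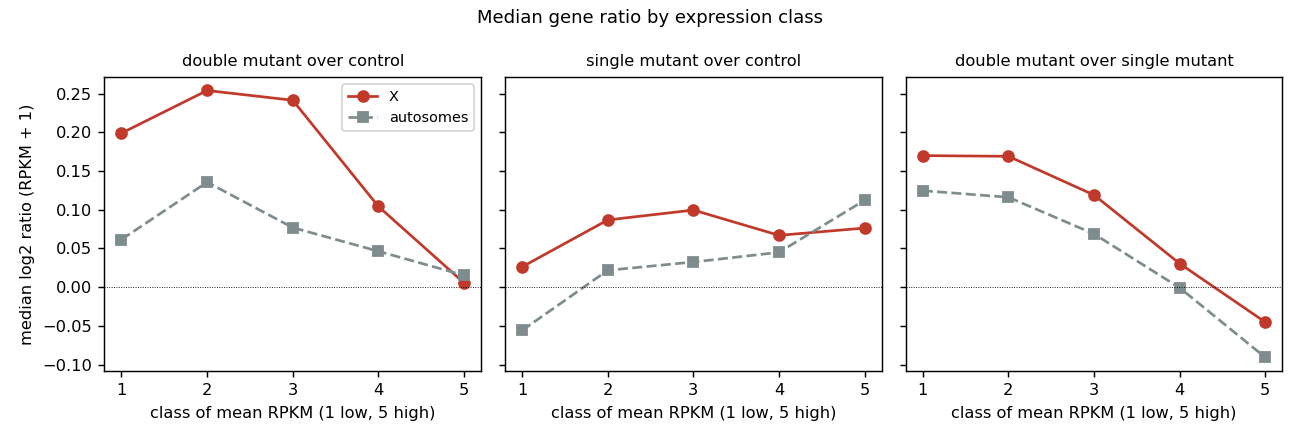
Median log2 ratio, with 1 RPKM added, of X genes (red circles) and autosomal genes (grey squares) in 5 classes of mean RPKM, from low to high, for each comparison. In double mutant over control the lines are apart in the first 4 classes and meet in the highest, at 0.01 on the X and 0.02 on the autosomes.

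X transcripts were longer than autosomal ones, and ratios varied with length in these libraries. The median length of the longest annotated transcript was 2225 bases over 1493 X members and 1940 bases over 7333 autosomal genes. Across X genes, which share the same libraries and are not replicates, the ratio of double mutant over control had a Spearman correlation of 0.19 with length, and that of double over single mutant 0.26; on the autosomes these were 0.19 and 0.24. For single mutant over control the correlation was -0.06 on the X and -0.06 on the autosomes, in the other direction. Within each length class the X median stayed above the autosomal one. For double mutant over control it was 0.18 on the X and 0.04 on the autosomes for transcripts under 1 kb, and 0.34 on the X and 0.25 on the autosomes for transcripts of 4 kb or more. When genes were divided by expression class and length class together, the X median was above the autosomal median in 17 of 20 cells for double mutant over control, in 17 of 20 for single mutant over control and in 15 of 20 for double over single mutant. After a correction for length the difference in double mutant over control was 0.09 (0.0855).

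Along the chromosome the excess was spread rather than held in a single segment. The X was divided into windows of 2 Mb, of which 11 held at least 20 members (89 to 173 each); a last window, from 22000001 onward, held 7. For double mutant over control 10 of the 11 window medians exceeded the autosomal median of 0.06, with a highest value of 0.21 between 10000001 and 12000000 and a lowest of 0.04 between 14000001 and 16000000. Of 49 windows on the large autosomal arms 24 exceeded the same value. The median of the 11 X windows was 0.16, a level that 2 of the 49 autosomal windows reached. For single mutant over control 9 of 11 X windows exceeded the autosomal median and the X windows ranged from -0.01 (4000001 to 6000000) to 0.14 (20000001 to 22000000); the median of the X windows, 0.09, was reached by 8 of the 49 autosomal windows. In double over single mutant 8 of 11 exceeded it, with the X windows between 0.0006 and 0.15, and their median of 0.10 was reached by 3 of the 49 autosomal windows.

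**Figure D4:**
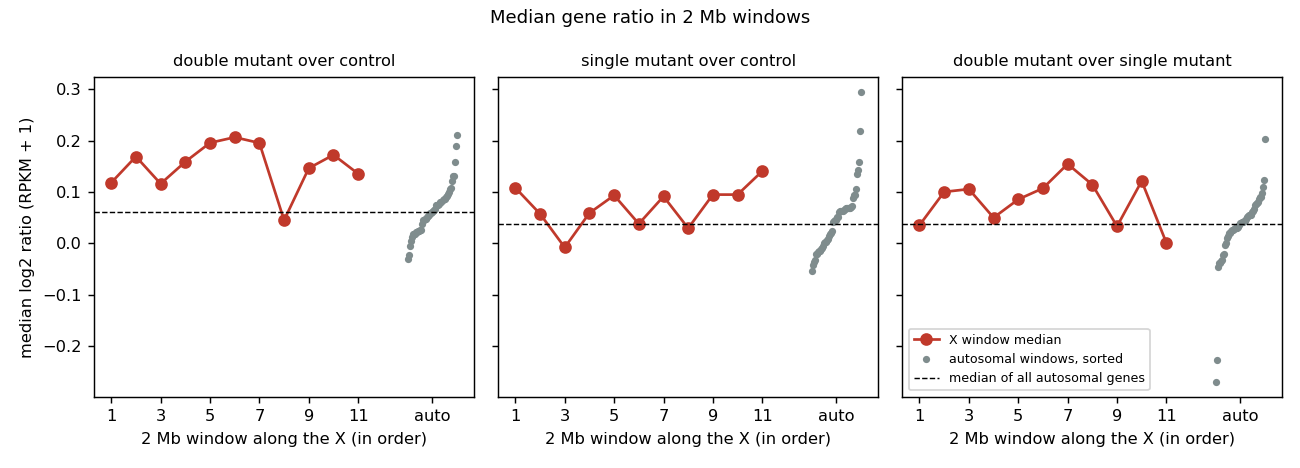
Median log2 ratio, with 1 RPKM added, in successive 2 Mb windows of the X (red) and in 49 windows of the large autosomal arms sorted by value (grey); the dashed line is the median of all autosomal genes. In double mutant over control 10 of 11 X windows lie above the line and window 8 lies below it, at 0.04.

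The roX genes are sites where the MSL complex assembles on its own RNAs. With distance from them the ratio of double mutant over control showed no steady trend, and that of single mutant over control increased slightly. The median of double mutant over control was 0.23 for 37 members within 0.1 Mb of roX1 or roX2, 0.12 for 115 members at 0.1 to 0.5 Mb, 0.20 for 395 members at 0.5 to 2 Mb and 0.14 for 1036 members farther away. The same classes, from near to far, had medians of 0.01, 0.03, 0.07 and 0.08 in single mutant over control, so members nearest the roX genes had the lowest median there. In double over single mutant they had 0.12, 0.06, 0.13 and 0.07. Neighbouring members, taken as pairs next to each other with separate locus spans, had a Spearman correlation of 0.11 over 1272 pairs on the X in double mutant over control and of 0.09 over 6026 pairs on the autosomes. Neighbours share the library, and values of this size say little about single genes. The table gives assembled spans, and 518 members share theirs with another member. Pairs with the same span were left out of these correlations.

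Few X genes differed by 2-fold or more, and in double mutant over control nearly all of these were higher. In that comparison 69 members (4.36%) stood 2-fold or more above control and 10 (0.632%) as far below it, against 3.05% above and 1.34% below among all 9475 genes. With a limit of 1.5-fold, 234 members (14.8%) were higher and 43 (2.72%) lower, against 11.3% and 3.93% of all genes. Near-identical Stellate rows supplied 9 of the 69, and 60 remained without them. Those 9, with ng1, ng2, ng3, CG14265, CG11697 and CG3600,CG42527, passed 1 RPKM in the double mutant library alone. The limit let them in through the library where they were high. The share of higher members therefore cannot be read against that of all genes. The 2-fold counts were 46 higher and 12 lower with libraries scaled to equal autosomal medians, and 47 and 11 with libraries scaled to equal sums without short RNAs and hosts. Shares of all genes under these scalings were not computed. Whether the X share of 2-fold higher genes stays above that of all genes after scaling is therefore not known. Single mutant over control had 38 members (2.40%) higher by 2-fold or more and 51 (3.22%) lower, against 2.64% and 3.49% of all genes, so the X shares were near the background. At 1.5-fold these were 170 (10.7%) and 139 (8.79%), against 10.5% and 9.32%. This split depended on the scaling: with libraries scaled to equal sums without short RNAs and their hosts it was 18 higher and 66 lower. The shares of all genes under that scaling were not computed here either. Double over single mutant had 76 members (4.80%) higher, near the 4.23% of all genes, and 9 (0.569%) lower, against 1.14% of all genes. At 1.5-fold these were 208 (13.1%) and 56 (3.54%), against 11.3% and 5.37%.

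Among the members highest in the double mutant library relative to control, a gene within 20 kb of roX2 had the largest ratio. CG11697 (X, 11466739 to 11467673), named Reepl1 in RefSeq, had 32.4 RPKM in the double mutant, 0.0652 RPKM in the single mutant and 0.192 RPKM in the control library, a ratio of 4.81 over control. It passed 1 RPKM in the double mutant library alone, and CG11696, e(y)2 and CG11695 lie between it and roX2. No other member nearby came close to that ratio. Of the 11 members within 20 kb of roX2, Kmn1, a kinetochore gene, was the other at 2-fold, with 32.0, 19.0 and 11.6 RPKM. All genes had a share of 3.05% at this level, but the count cannot be read against it because of how CG11697 passed. CG11696 had 34.2, 28.3 and 31.9 RPKM, CG11695 had 16.2, 11.6 and 14.7 RPKM, and nod, a chromokinesin gene of meiosis, had 22.3, 23.7 and 30.6 RPKM. RpII215, which encodes the largest subunit of RNA polymerase II, had 46.9, 24.2 and 25.0 RPKM, with the mutants on different sides of the control value.

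Lsp1alpha and ng3 came next in that order. Lsp1alpha (X, 12384415 to 12386933), a larval serum protein gene of the fat body, had 231, 23.0 and 47.3 RPKM, so that the double mutant value was highest and the single mutant value lowest. The other 6 fat body markers had the same order in sum, with 992, 201 and 551 RPKM, and their part in this result was not tested. The new glue gene ng3 had 12.4, 0.604 and 0.934 RPKM, Pig1, a gene of the same cluster known from salivary glands, had 12.4, 0.784 and 3.62 RPKM, and CG14265 had 6.19 RPKM, was listed at 0 and had 0.644 RPKM. With ng1 (1.21, 0 and 0.101 RPKM) and ng2 (1.68, 0 and 0.0886 RPKM) they form a run of 5 neighbours within 1 assembled span (X, 3070474 to 3233360), each at least 2-fold higher in the double mutant library than in either other library. Of the 5, ng1, ng2, ng3 and CG14265 reached 1 RPKM in the double mutant library alone. They are thus members only through the library in which they were high, and the length of the run depends on the limit. Sgs4, a glue gene in the same span, stayed near 0 in all libraries (0.0915, 0.151 and 0.102 RPKM), and the 6 salivary gland markers other than ng1, ng2 and ng3 had their lowest sum in the double mutant library (87.7, 636 and 159 RPKM).

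The other long run was the Stellate cluster (X, 13894242 to 13955458), multicopy genes known to be kept silent in the male germ line by RNA from the Y chromosome. Its 11 rows, 2 of them outside the members, had 0.343 to 3.01 RPKM in the double mutant, 0.275 to 0.976 RPKM in the single mutant and 0.0653 to 0.281 RPKM in the control library. All 9 member rows passed 1 RPKM in the double mutant library alone, so they are members only through the library in which they were high. The highest single mutant value was below 1 RPKM. Ste:CG33237, outside the members, had 0.343, 0.344 and 0.0946 RPKM, so its double mutant value was not above the single mutant one. The copies are nearly identical, so reads cannot be assigned to one of them and the rows count as a single observation.

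The remaining members among the 10 highest had separate patterns. PIP82, known from photoreceptors (X, 8411405 to 8446152), had 79.7, 16.2 and 16.1 RPKM, high in the double mutant library alone. The joined row CG3600,CG42527, names that RefSeq lists under the ecdysone-responsive nuclear receptor gene Hr4, had 3.32, 0.391 and 0.317 RPKM. The eye pigment transporter gene w (X, 2684631 to 2690499), had 23.6, 2.65 and 6.74 RPKM. Many inserted elements carry a copy of w as their visible marker, and reads from a copy and from w itself cannot be told apart here. Cyp4d1, a cytochrome P450 gene, had 11.2, 4.16 and 2.14 RPKM. CG15347 (57.1, 53.7 and 13.9 RPKM) and CG14193,Mec2 (112, 98.3 and 31.2 RPKM) were high in both mutant libraries.

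**Figure D5:**
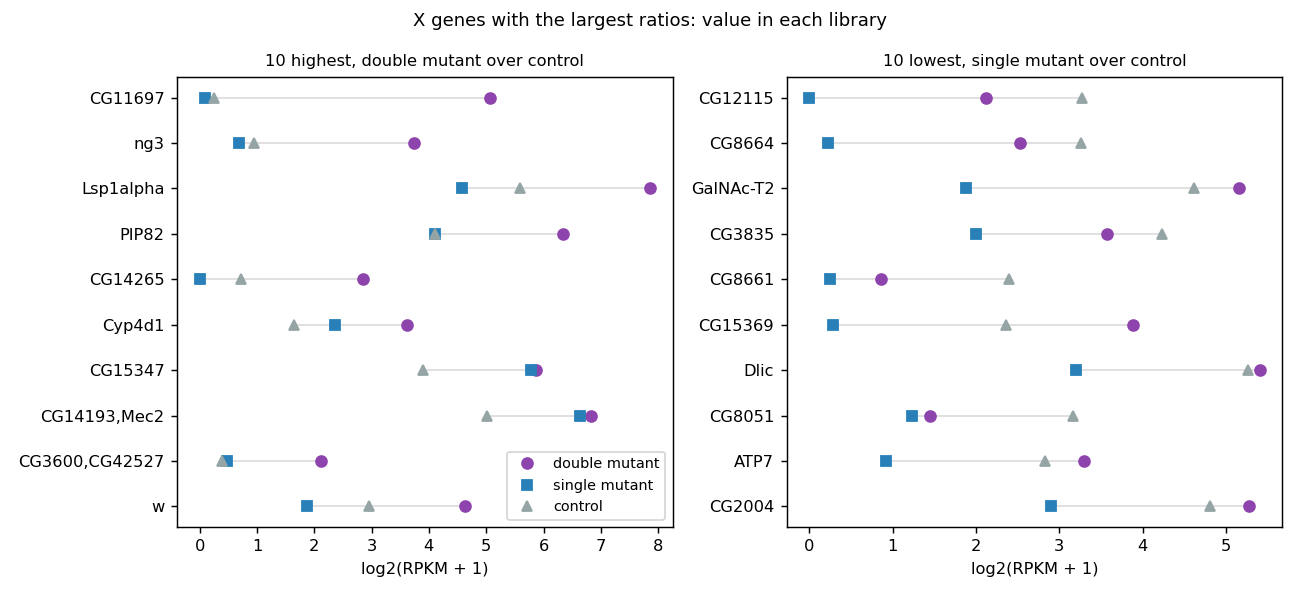
Level, as log2(RPKM + 1), of 10 X genes in each of the 3 libraries: left, the 10 with the highest ratio of double mutant over control; right, the 10 with the lowest ratio of single mutant over control. On the left the double mutant value (purple circles) is the highest for all 10 genes, and on the right the single mutant value (blue squares) is the lowest for all 10.

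The 10 members lowest in the double mutant library relative to control were mostly low in both mutant libraries. CG8051 had 1.73, 1.34 and 7.96 RPKM, CG9672 had 0.758, 0.756 and 4.51 RPKM, CG9512 had 2.69, 4.15 and 9.56 RPKM, CG6048 had 0.233, 0.631 and 2.29 RPKM and CG3588 had 3.43, 3.63 and 8.52 RPKM. These are the 5 members in which control stood at least 2-fold above both mutant libraries while those lay within 1.5-fold of each other (0.316% of members, against 0.559% of all genes). Of the 5, CG9672 and CG6048 passed 1 RPKM in the control library alone. CG6048 and CG9672 carry synonyms of serine proteases and serine protease homologues in RefSeq. CG15221 had 0.0151, 0.917 and 2.84 RPKM, CG8661 had 0.808, 0.184 and 4.27 RPKM, CG12115 had 3.35, 0 and 8.63 RPKM and CG32581 (sordd2 in RefSeq) had 16.3, 23.1 and 39.8 RPKM. CG12481 was the exception, with 2.84, 11.8 and 9.24 RPKM, and it was the single member low in the double mutant library alone (0.0632% of members, against 0.106% of all genes). The summed gut markers were 36.7, 2.44 and 92.7 RPKM, also highest in control, and their part in these values was not tested.

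The 10 members highest in single mutant over control comprised genes low in control and genes high in the single mutant library. The chitin-binding protein gene obst-A had 6.99, 9.96 and 1.88 RPKM, the Arp2/3 complex gene Arpc3B had 34.6, 41.1 and 13.4 RPKM and the lipocalin gene Karl had 83.5, 75.5 and 29.4 RPKM. These 3, CG15347 and CG14193,Mec2 belong to 13 members in which control was the low library (0.821%, against 0.633% of all genes). In others the single mutant library was the high one. The ATP synthase epsilon subunit gene sun had 58.5, 109 and 37.1 RPKM, and sqh, the regulatory light chain of nonmuscle myosin II, had 113, 189 and 76.3 RPKM. The protease gene spirit, which acts upstream of Toll, had 24.3, 57.3 and 21.0 RPKM, CG9689 had 13.4, 32.9 and 12.1 RPKM, and Gclc, the catalytic subunit of glutamate-cysteine ligase, had 12.8, 24.8 and 9.76 RPKM. CG9689, spirit, CG33557 and CR42861 were the 4 members that stood high in the single mutant library alone (0.253%, against 0.348% of all genes). Of the 4, CG33557 passed the limit for members in that library alone.

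The larger pattern in that comparison was of genes low in the single mutant library alone. It is defined in the same way as the group high in control, and held 23 members (1.45%), a share near that of all genes (1.49%), and therefore not a feature of the X. The named genes among them have varied roles. The clathrin heavy chain gene Chc had 175, 50.1 and 150 RPKM, the dynein light intermediate chain gene Dlic had 41.5, 8.16 and 37.4 RPKM and Fur2, a furin-type protease gene, had 23.9, 4.29 and 16.3 RPKM. GalNAc-T2 (Pgant7 in RefSeq), a mucin-type glycosyltransferase gene, had 34.6, 2.67 and 23.5 RPKM, and the copper transporter gene ATP7 had 8.78, 0.883 and 6.09 RPKM. Nrg, the neuroglian cell adhesion gene, had 58.7, 12.9 and 41.5 RPKM. Hira, the chaperone gene, was in the group (9.48, 2.80 and 8.76 RPKM), as was Set2, the histone H3 lysine 36 methyltransferase gene (12.4, 4.52 and 10.7 RPKM). CG3011, named Shmt in RefSeq after serine hydroxymethyltransferase, had 126, 62.4 and 133 RPKM, and the double mutant and control values lay within 1.5-fold of each other in each of these genes.

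Others among the 10 lowest of single mutant over control had a double mutant value farther from control. CG8664 had 4.77, 0.171 and 8.55 RPKM and CG3835 (D2hgdh in RefSeq, the enzyme that oxidizes D-2-hydroxyglutarate) had 10.9, 2.996 and 17.8 RPKM. In these genes the double mutant value lay between the others. CG15369 had 13.7, 0.221 and 4.14 RPKM, with the double mutant value above control. CG2004 was the exception, with 37.8, 6.48 and 26.99 RPKM. Its double mutant value lay within 1.5-fold of control, and it belonged to the group low in the single mutant library alone. CG8664 and CG8661 are neighbours (X, 17175809 to 17178516) and were the 1 pair of adjacent members at 2-fold or lower in this comparison.

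The highest members in double over single mutant repeated those named above for the most part, namely CG11697, CG15369, GalNAc-T2, Lsp1alpha, ng3, Pig1, CG14265, w and ATP7. The tenth was CG2186, with 26.1, 3.50 and 12.4 RPKM. The members high in the double mutant library alone numbered 13 (0.821%, against 0.570% of all genes). Besides those given, they included nej, the CBP acetyltransferase gene (19.0, 7.98 and 7.20 RPKM), the transferrin gene Tsf1 (136, 51.6 and 66.4 RPKM) and CG11071,mamo, a row that holds a transcription factor gene (5.55, 2.23 and 1.95 RPKM). Of the 13, CG11697, ng1, ng2, ng3, Ste12DOR and CG3600,CG42527 reached 1 RPKM in the double mutant library alone. The limit let them in through the library where they were high, so the share cannot be read against that of all genes. Of the 10 lowest members 9 were at least 2-fold lower. CG12481, CG9689 and spirit are given above, and CR42861 had 20.8, 49.2 and 21.2 RPKM. The other members had at most 11.5 RPKM. CG15308 had 1.03, 4.33 and 1.76 RPKM, tsg, a BMP-binding protein gene, had 1.91, 5.22 and 3.50 RPKM, CG1545 had 4.87, 11.5 and 7.25 RPKM and CG33557 had 0.0937, 1.24 and 0.0988 RPKM. CG12688 (a noncoding RNA gene in the later annotation) had 0.0468, 1.42 and 0.325 RPKM, and GlcAT-I, a glucuronyltransferase gene of proteoglycan synthesis, had 4.79, 10.6 and 4.43 RPKM, just under 2-fold.

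Lists of X genes by role are described by their median ratio beside the X medians of 0.15 (double mutant over control), 0.07 (single mutant over control) and 0.08 (double over single mutant). Members are counted above the autosomal median ratio of each comparison, a level that 51.5% of all genes and 59.8% of X members exceeded in double mutant over control. For single mutant over control these shares were 50.8% and 54.3%, and for double over single mutant 50.7% and 55.3%. Of the dosage compensation and sex determination genes 7 of 9 passed 1 RPKM, none differed by 2-fold in any comparison, and the median in double mutant over control was 0.27. The acetyltransferase gene mof had 15.5, 15.5 and 12.6 RPKM. The row CG14425,Sxl, which holds the female splicing switch gene, had 40.4, 53.3 and 31.2 RPKM, and snf, a splicing factor gene that acts on Sxl, had 189, 247 and 187 RPKM. The numerator gene sisA, an early embryonic X counting gene, was at or near 0 (0, 0.158 and 0.0633 RPKM).

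Chromatin genes exceeded the autosomal median of double mutant over control in 15 of 19 cases (78.9%), against 51.5% of all genes. Their median was 0.37, or 0.24 with libraries scaled to equal autosomal medians, and 3 of 19 were at least 2-fold higher, against 3.05% of all genes. These were fs(1)h, the BET bromodomain gene (33.0, 20.4 and 13.5 RPKM), Top1, the DNA topoisomerase I gene (22.4, 19.5 and 10.5 RPKM), and Smr, a nuclear receptor corepressor gene (21.2, 4.68 and 10.1 RPKM). The H3.3 gene His3.3B had 460, 584 and 322 RPKM, and the Polycomb genes ph-p and ph-d had 20.1, 18.9 and 14.2 RPKM and 10.1, 8.75 and 7.64 RPKM. The list's transcripts were long (median 5325 bases), and X transcripts of 4 kb or more had a median of 0.34 in this comparison. In double over single mutant Hira and Smr were higher by 2-fold, against 4.23% of all genes. Hira was the 1 gene of 19 lower by 2-fold in single mutant over control, against 3.49% of all genes. The list's median of 0.13 in that comparison turned to -0.02 with libraries scaled to equal sums without short RNAs and hosts.

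Neural transcription factor genes had a median of 0.64 in double mutant over control, and 16 of the 20 that passed 1 RPKM exceeded the autosomal median, against 51.5% of all genes. In 3 of them (ct, Sp1 and CG11071,mamo) the difference was 2-fold or more, against 3.05% of all genes. The median in single mutant over control was 0.38, with none at 2-fold. The homeobox gene ct had 10.5, 7.23 and 4.42 RPKM, Sp1 had 11.5, 7.89 and 4.81 RPKM, and the Bar genes B-H1 and B-H2 had 6.49, 6.32 and 4.25 RPKM and 7.86, 7.44 and 3.53 RPKM. Lim1, a LIM homeobox gene, had 6.67, 4.34 and 2.85 RPKM, and ewg, a neuronal factor gene, had 29.6, 29.4 and 22.0 RPKM. The proneural genes of the achaete-scute complex did not follow, since ac had 9.16, 16.0 and 12.8 RPKM, sc had 6.998, 7.07 and 8.93 RPKM, l(1)sc had 1.06, 0.571 and 1.22 RPKM and the neuroblast gene ase had 2.43, 3.70 and 3.03 RPKM. In all 4 the double mutant value was below the control value. They share 1 assembled span (X, 173735 to 364670). The 4 eye disc markers, transcription factor and cofactor genes also used in the optic lobe, summed to 106, 89.1 and 64.2 RPKM, lowest in control, as was the sum of this list (240, 248 and 177 RPKM), and their part in these values was not tested. The list was of low level (median of means 4.99 RPKM), in a class in which X genes had a median of 0.25.

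Of the 22 neuronal function genes that passed 1 RPKM, 19 (86.4%) exceeded the autosomal median of double mutant over control, against 51.5% of all genes, and none was at 2-fold. The list's median was 0.43. The sodium channel gene para had 2.16, 1.02 and 1.95 RPKM and the potassium channel gene Sh had 1.69, 0.740 and 0.853 RPKM. The learning genes dnc, a cAMP phosphodiesterase, and rut, an adenylyl cyclase, had 7.26, 3.35 and 5.01 RPKM and 12.6, 8.34 and 9.32 RPKM. The scaffold gene dlg1 had 37.6, 32.7 and 23.5 RPKM, Appl, the amyloid precursor protein-like gene, had 24.2, 17.9 and 16.6 RPKM, and Ten-a, a teneurin gene of synaptic matching, had 63.0, 47.3 and 39.6 RPKM. The spectrin gene beta-Spec was the 1 member of the list lower in the double mutant library than in control, with 265, 248 and 285 RPKM. The 8 brain markers, elav among them, were also highest in sum in the double mutant library (183, 136 and 124 RPKM), and their part in these values was not tested. This list had the longest transcripts (median 9071 bases). Its median of 0.08 in single mutant over control turned to -0.06 with libraries scaled to equal sums without short RNAs and hosts. Nrg was the 1 gene of 22 at least 2-fold lower in that comparison, against 3.49% of all genes.

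Of 20 signalling genes 16 exceeded the autosomal median of double mutant over control, against 51.5% of all genes. Their median was 0.40, and 2 of 20 were at least 2-fold higher, against 3.05% of all genes. These were csw, a tyrosine phosphatase gene of receptor kinase signalling (8.75, 6.88 and 3.50 RPKM), and sog, a BMP antagonist gene (7.25, 5.32 and 2.57 RPKM). The receptor gene N had 115, 88.1 and 84.0 RPKM, whereas arm, the beta-catenin gene, had 524, 722 and 685 RPKM and was lowest in the double mutant library. Between single mutant and control 19 of 20 exceeded the autosomal median, against 50.8% of all genes, and none was at 2-fold, with a median of 0.25 (0.10 with libraries scaled to equal sums without short RNAs and hosts). Among the 5 ecdysone rows, usp, the partner of the ecdysone receptor, had 21.6, 23.7 and 15.1 RPKM and the joined row br,dor, which holds the Broad gene, had 32.9, 19.4 and 13.95 RPKM. That row and CG3600,CG42527 were 2-fold or more above control in the double mutant library, against 3.05% of all genes. The row CG3600,CG42527 passed 1 RPKM in that library alone, so the count cannot be read against this share. The steroid synthesis gene phm, a marker of the ring gland that is attached to the larval brain, had 236, 253 and 279 RPKM.

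Cell division and repair genes had a median of 0.15 in double mutant over control, equal to that of the X, and none was at 2-fold. The replication helicase genes Mcm3 (74.8, 68.1 and 98.0 RPKM) and Mcm6 (78.1, 69.2 and 107 RPKM) were lower in both mutant libraries than in control. The list's median of 0.09 in single mutant over control turned to -0.07 with libraries scaled to equal sums without short RNAs and hosts. In that comparison sqh was the 1 gene of 16 at least 2-fold higher, against 2.64% of all genes. The 14 ribosomal protein genes, with a median level of 3026 RPKM, had medians of -0.10 in double mutant over control and -0.26 in double over single mutant, where 1 of 14 exceeded the autosomal median, against 50.7% of all genes. Their median of 0.11 in single mutant over control turned to -0.06 under the same scaling. RpS6 had 3824, 4933 and 4793 RPKM, RpS28b had 3658, 4950 and 3740 RPKM and RpL37a had 901, 1640 and 769 RPKM. RpL17 (140734, 212651 and 148180 RPKM) hosts small nucleolar RNAs and eas (33485, 36759 and 31078 RPKM), an ethanolamine kinase gene, shares its span with small nuclear RNA rows. These 2, with sta, the laminin receptor-like ribosomal gene (5139, 5671 and 5725 RPKM), RpS6 and RpS28b, had the 5 highest means, and the values of RpL17 and eas are uncertain as measures of their messenger RNA.

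The 10 metabolism rows had a median of 0.04 in double mutant over control, which turned to -0.08 and -0.07 under the 2 other scalings, and none was at 2-fold in any comparison. Gapdh2 had 524, 781 and 675 RPKM and Pgd, of the pentose phosphate pathway, had 64.4, 60.1 and 76.5 RPKM. Of the 7 pigment and granule rows that passed 1 RPKM, w and br,dor were at least 2-fold above control in the double mutant library, against 3.05% of all genes. The joined row br,dor was already counted among the ecdysone rows, so it is the same value in both lists. The adaptor gene rb, which acts in pigment granule traffic, had 22.4, 13.7 and 18.5 RPKM. In the list of yolk, storage, glue and eggshell genes 6 of 13 passed 1 RPKM and 5 of these were at least 2-fold higher in the double mutant library than in control, namely Lsp1alpha, Pig1, ng1, ng2 and ng3. All genes had a share of 3.05% at this level, but the count cannot be read against it. Of the 5, ng1, ng2 and ng3 passed the limit of 1 RPKM through the double mutant library alone, where they were high. Over all 13 genes, without that limit, the list's median in double mutant over control was 0.17. The same 5 were higher by 2-fold in double over single mutant, where the share of all genes was 4.23%. That comparison uses the same double mutant library, so it is no separate result, and the same limit applies. Lsp1alpha and Pig1 were lower by 2-fold in single mutant over control, against 3.49% of all genes. The sixth, the yolk protein gene Yp3, had 1.18, 0.740 and 0.947 RPKM, and the eggshell genes Cp36, Cp38 and dec-1 stayed below 1 RPKM (0.227 RPKM at most).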

How the data were processed

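RNA of 3 libraries, 1 per genotype, was sequenced after removal of ribosomal RNA, per the labels' protocols. The authors deposited 1 table of RPKM per assembled locus in the build dm3; TopHat2 2.0.9, Cufflinks 2.0.2, Trimmomatic and FastQC appear in the submitters' processing notes. Their settings, the annotation and any use of strand were not given in the sources used here, so overlapping genes on opposite strands may not be told apart. Columns were matched to samples by genotype; 0 other sample columns were present. Ratios used a pseudocount of 1 RPKM and no test was run (python 3.11.15, pandas 2.3.3); steps were tested on simulated data. The table's coordinates were used as given. Transcript lengths, hosts and current symbols came from the later build BDGP6 by name (a length was found for 1493 of 1583 X and 7333 of 7840 autosomal genes). Where several rows of a chromosome carried a name, the highest-mean row was kept, which dropped 14 X rows; 69 members are rows that join genes, and CG13403 lacks a value in the single mutant library. Each comparison names the 10 highest and 10 lowest members, runs of 3 or more neighbours, the 5 highest means and genes of the role lists. The members and lists were chosen with earlier results of these data known. Alternatives varied pseudocount, filter, joined rows, scaling, fold, window, length and row choice. Promoter motifs were not analysed here. Depth is known only as the estimate in the text.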

Additional observations from a re-analysis of the deposited data

How the results depend on the processing

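The excess of the X median over the autosomal median stayed above 0 in all 13 alternatives of each comparison, between 0.06 and 0.11 for double mutant over control, 0.02 and 0.05 for single mutant over control and 0.03 and 0.05 for double over single mutant; the lowest value in double mutant over control, 0.0610, came with a pseudocount of 5 RPKM. Several of these alternatives, such as the scalings and leaving out chromosome 4, could hardly move the X and autosomal medians apart. They therefore bear little on this excess. Counts of members past 2-fold moved most. In double mutant over control there were 117 higher and 27 lower with a pseudocount of 0.1 RPKM, 20 and 1 with 5 RPKM, 234 and 43 at 1.5-fold, and 6 lower with a filter at 5 RPKM. In single mutant over control there were 78 and 89 with 0.1 RPKM, 17 and 18 with 5 RPKM, 170 and 139 at 1.5-fold, and 18 higher when scaled to equal sums without short RNAs and hosts. In double over single mutant there were 127 and 26 with 0.1 RPKM, 26 and 4 with 5 RPKM, 208 and 56 at 1.5-fold, and 14 lower when scaled to equal autosomal medians. In the lowest expression class the X excess in double mutant over control was 0.23 with 0.1 RPKM, 0.0458 with 5 RPKM and 0.00593 with no filter. The share of X windows above the autosomal median in double over single mutant, 72.7%, was 90.9% with a pseudocount of 5 RPKM, with no filter and with a filter at 5 RPKM, and in double mutant over control it was 100% with windows of 4 Mb. The quotient of X to autosomal level without a filter was 1.40 in the double mutant, 1.30 in the single mutant and 1.27 in the control library, and 1.005 in the double mutant with a filter at 5 RPKM. The list of yolk, storage, glue and eggshell genes had medians in double over single mutant of 3.77 with 0.1 RPKM and 0.31 with no filter, and of -0.0668 in single mutant over control with 5 RPKM. Cell division genes had 0.00983 in double over single mutant when scaled to equal autosomal medians. Scaled to equal sums without short RNAs and hosts, signalling genes had 0.10 and ribosomal protein genes -0.0609 (reversed) in single mutant over control. That scaling moved the median of all genes by -0.11 in double mutant over control and -0.14 in single mutant over control, and scaling to equal autosomal medians by -0.12 in double mutant over control. The other 375 of 414 values stayed within the binomial interval of the median over genes or within 1.5 times the count. Genes share a library and are not replicates, so this interval measures no spread between libraries. For the shortest lists it is the full range of the list's genes. Some list medians that changed sign with the scaling still lay within it, so staying within it is a weak criterion. No replicates exist to leave out. No paired analysis was possible because each genotype has 1 library. Hosts and Stellate rows left out and the demand for 1 RPKM in every library were chosen after seeing the data.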

Other observations

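Of the X members, 7 were listed at 0 in the single mutant library and none in the double mutant or the control library. At 100 RPKM or more there were 115 members in the double mutant, 116 in the single mutant and 106 in the control library. Runs of 2 adjacent members past 2-fold the same way, apart from the runs named above, included CG42259 and CG14629 (X, 940256 to 946661), which were higher in both mutant libraries than in control. CG14629 had 206, 189 and 90.0 RPKM in the double mutant, single mutant and control libraries, and CG42259 had 10.03, 8.75 and 3.87 RPKM. Nrg and PIP82 share an assembled span (X, 8411405 to 8446152) and both differed by 2-fold or more between these mutants, although Nrg had 58.7 RPKM in the double mutant, 12.9 RPKM in the single mutant and 41.5 RPKM in control, and PIP82 had 79.7, 16.2 and 16.1 RPKM.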
